A study of Mus musculus with 6 samples.

Results

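Igf2, H19, Peg10, Grb10 and Ube3a are genes known for parental imprinting. Their RNA was followed here in the mouse ovary from the day of birth to day 4. The probes were taken by name, from the array annotation that gives the symbol or the full name of each gene. The rule itself uses no measured value, but the genes were chosen with earlier results of these data known. This found 7 of the 8272 probes on the arrays, for all 5 genes: 1 probe each for Igf2, H19 and Grb10, and 2 probes each for Peg10 and Ube3a. In counts of genes the probe with the higher mean intensity, called the brighter probe, stands for its gene.

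Total RNA came from ovaries of C57Bl/6J pups, an inbred wild-type strain, with no treatment, in the first day after birth (day 0) and on days 2 and 4. Each of 6 spotted cDNA arrays carried 1 later-day RNA in Cy5 and 1 day 0 RNA in Cy3, giving 3 arrays of day 2 over day 0 and 3 arrays of day 4 over day 0. The labels call the RNA samples of an age biological replicates and do not say how many pups gave each, so the p-values measure the spread between these RNA samples. The third array of each age carried 1 common day 0 RNA, so the comparisons of day 2 and of day 4 with day 0 share that control sample, and the other 4 arrays had a day 0 RNA of their own.

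An imprinted gene is read mainly or only from the chromosome inherited from 1 parent, according to DNA methylation set down in the germ line. Igf2, a secreted growth factor of the fetus, is read from the paternal chromosome, and its neighbour H19, a noncoding RNA, from the maternal one, and both use the same enhancers. Peg10, derived from a retrotransposon and needed for the placenta, is paternally expressed. Grb10 is an adaptor that binds the insulin and IGF receptors and restrains their signal, and it is maternally expressed in most tissues. Ube3a is a ubiquitin ligase whose paternal copy is silent in neurons, while both copies are generally read elsewhere. In many organs of the mouse Igf2 and H19 are abundant before birth and decline in the weeks after it. The arrays measured the RNA of both parental copies together and say nothing of imprinting itself.

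Regulatory stretches are shown as a description, for the 3 genes that had an upstream stretch available. In the fit given below, Igf2 ranked 15 from the lowest of 8135 probes at day 4. Grb10 ranked 551 and the Ube3a probes 763 and 3315, so they were not among the lowest 25 probes at day 4. H19 and Peg10, which were among those 25 as Igf2 was, had no stretch available. Below are 250 bases upstream of a RefSeq transcription start (build GRCm38.p6), 5′ to 3′ on the gene's strand, with each GC box, GGGCGG or its reverse complement CCGCCC, in capitals; overlapping boxes run together.
Igf2, most downstream of 4 starts, chr7:142657497-142657746, minus strand: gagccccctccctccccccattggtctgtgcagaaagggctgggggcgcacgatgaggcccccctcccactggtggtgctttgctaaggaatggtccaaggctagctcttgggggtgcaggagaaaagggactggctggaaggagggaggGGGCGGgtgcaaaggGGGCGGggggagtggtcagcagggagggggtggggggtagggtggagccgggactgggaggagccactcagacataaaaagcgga
Grb10, more upstream of 2 starts, chr11:12037421-12037670, minus strand: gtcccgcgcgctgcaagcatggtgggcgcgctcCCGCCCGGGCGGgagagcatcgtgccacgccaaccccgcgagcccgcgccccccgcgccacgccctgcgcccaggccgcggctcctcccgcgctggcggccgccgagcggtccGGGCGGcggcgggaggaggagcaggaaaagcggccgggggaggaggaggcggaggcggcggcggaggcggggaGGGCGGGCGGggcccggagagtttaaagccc
Ube3a, chr7:59228500-59228749, plus strand: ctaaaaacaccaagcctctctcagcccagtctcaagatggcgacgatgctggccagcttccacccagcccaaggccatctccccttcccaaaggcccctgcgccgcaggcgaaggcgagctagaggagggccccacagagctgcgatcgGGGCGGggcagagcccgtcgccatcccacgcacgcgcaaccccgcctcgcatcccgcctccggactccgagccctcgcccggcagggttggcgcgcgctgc

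The Grb10 stretch held 5 GC boxes and 40 CpG sites, more CpG sites than nearly all windows of the table, since 98.9% of the windows had as many or fewer. The Ube3a stretch held 1 box and 24 CpG sites, and the Igf2 stretch 2 boxes and 6 CpG sites, which is the median of the 32851 windows. Of those windows, 32.7% held at least 1 box on either strand. The other Igf2 starts had 0, 0 and 1 box and 1, 10 and 22 CpG sites. The other Grb10 start had 0 boxes and 8 CpG sites. For Igf2 and Grb10 the start shown is the one with the most boxes, so their CpG counts depend on that choice. H19 and Peg10 are named only. A match is a description of the sequence and not a site.

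H19 is also the precursor of miR-675, and Igf2 hosts miR-483. They are shown as regulatory RNAs cut from the transcripts described here; the arrays did not measure the miRNAs themselves. Their mature forms follow from RefSeq (GRCm38.p6), with the seed, bases 2 to 8, in capitals.
miR-675-5p, in H19, chr7:142577112-142577133: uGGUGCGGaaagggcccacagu
miR-675-3p, in H19, chr7:142577078-142577099: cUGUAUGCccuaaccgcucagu
miR-483-5p, in Igf2, chr7:142654968-142654989: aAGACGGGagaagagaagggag
miR-483-3p, in Igf2, chr7:142654932-142654952: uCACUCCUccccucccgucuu
The 4 mature forms have 4 different seeds.

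Every value below is a log2 ratio of the later day over day 0 on the same array, the mean of up to 4 repeat spots, so that −1 is a halving and 0 is the level of the day 0 control. The number of arrays limits the precision. Array medians lay between −0.00267 and 0.0232. Day 4 array 1 lacked a value for 497 probes, of which 98.0% were among the brightest 10% of day 4 array 2, and Igf2, H19 and the brighter Ube3a probe were among them. Day 4 array 3 had 2640 probes under an authors' mark read here as a failed area, the brighter Peg10 probe included. Day 2 arrays 1 and 2 ran against each other (Pearson's r −0.675 across 8272 probes, which are not independent), although the headers give them the same dyes. As labelled, day 2 array 1 correlated with day 4 arrays 1, 2 and 3 at 0.27, 0.176 and 0.0234, and day 2 array 2 at 0.109, 0.239 and 0.225. Turning an array also turns the sign of its correlations. Why arrays 1 and 2 oppose each other was not tested. The direction of day 2 is not settled, and day 2 results are given with the sign of array 1 and of array 2 turned as well. All arrays had day 0 in Cy3, so a gene-specific dye effect and a change against day 0 cannot be told apart; such an effect cancels between day 4 and day 2.

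As labelled, Igf2 was below its day 0 level on every array that measured it, as were the brighter probes of Peg10 and Ube3a, against 4.3% of all probes tested. With the sign of array 1 turned this held for 0 of the 7 probes (8.01% of all), and with that of array 2 turned for H19 and Grb10 (6.56% of all). Its log2 ratio was −1.84, −0.80 and −0.62 on day 2 arrays 1, 2 and 3, and −2.35 and −1.94 on day 4 arrays 2 and 3. Both day 4 values lay below all 3 day 2 values, so the ages did not overlap, and this held with the sign of either day 2 array turned. Of all probes tested, 3.98% had day 4 arrays all below the day 2 arrays (8.16% and 9.26% with the sign of array 1 or 2 turned). The repeat spots of Igf2 were close together, with a standard deviation (SD) between 0.06 and 0.40 on an array. On day 4 array 2 only H19 was lower among 8272 probes, and on day 4 array 3 Igf2 was 16th from the lowest of 5630.

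The limma fit gave Igf2 a 4.42-fold lower level at day 4 than at day 0 (log2 −2.14 ± 0.33, SE, n = 2 arrays, 95% interval −2.99 to −1.30, adjusted p = 0.105). It did not pass the threshold, an adjusted p under 0.05 over all 8135 probes tested by limma with Benjamini-Hochberg adjustment. At day 4, 0.479% of all probes passed, and all 39 were higher. Over the alternatives that kept both day 4 values, the adjusted p of Igf2 spanned 3.18e-05 to 0.299. The lowest came from repeat spots entered as duplicates, which are not replicates of an age. The adjusted p was 0.105 in the main fit. It was 0.0191 without day 2 array 1, the array on which Igf2 stood apart from the other day 2 values, and 0.0135 with the day 4 arrays fitted alone. In bulk tissue, fewer cells of a type and less RNA per cell cannot be told apart.

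At day 2 the fitted Igf2 level was 2.12-fold below day 0 (log2 −1.09 ± 0.27, n = 3, adjusted p = 0.966), where 0% of all probes passed. With the sign of array 1 turned the day 2 mean was 0.14 ± 0.53, and with that of array 2 turned −0.55 ± 0.48. Day 4 was 2.08-fold below day 2 (log2 −1.06 ± 0.43, 95% interval −2.15 to 0.04, adjusted p = 0.9999), where 0% of all probes passed. Turning array 1 of day 2 made that difference −2.28, and turning array 2 made it −1.59. On array 3, where both ages met the same day 0 RNA, Igf2 was 2.5-fold lower at day 4 than at day 2 (a difference of −1.32). That was the sixth-lowest step, at rank 6 of 5630 probes.

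**Figure D1:**
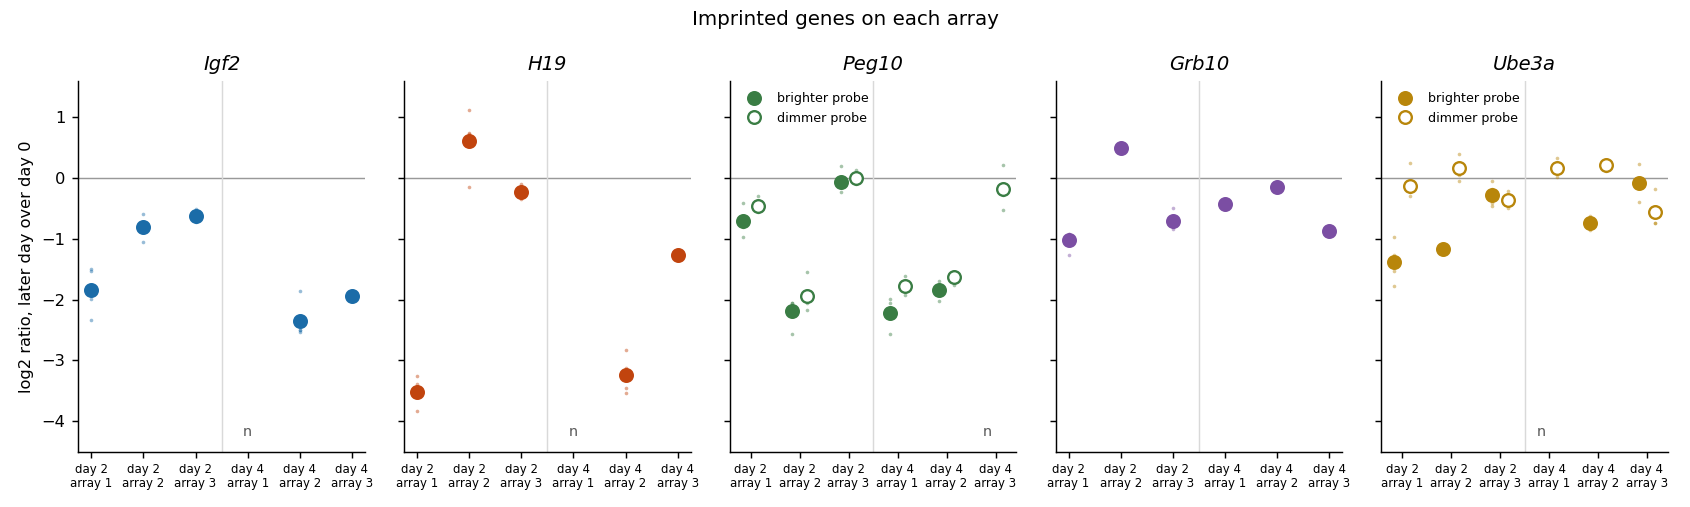
Log2 ratio (later day over day 0) of each imprinted gene on each of the 6 arrays. Large points are array means, small points the repeat spots, filled and open points the brighter and dimmer probe of a gene, and n marks an array without a value; both Igf2 values of day 4 lie below its 3 values of day 2.

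H19, the RNA next to Igf2, was the lowest of all 8272 probes on day 4 array 2. Its log2 ratio was −3.52, 0.62 and −0.22 on day 2 arrays 1, 2 and 3, and −3.24 and −1.26 on day 4 arrays 2 and 3. Day 4 array 2 stood for a 9.42-fold lower level and array 3 for a 2.39-fold lower one. The day 2 values spanned both signs and overlapped those of day 4, and array 1 alone was far below 0, where H19 was the fourth-lowest probe, at rank 4. On day 2 array 2 H19 carried an authors' flag that the headers do not define, and its repeat spots ran from −0.15 to 1.13. The spread between arrays exceeded the difference between ages: the SD was 2.19 over day 2 and 1.40 over day 4.

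The fitted value of H19 at day 4, log2 −2.25 ± 1.08 (n = 2, 95% interval −5.01 to 0.52, adjusted p = 0.630), was as low as that of Igf2 with over 3 times its error. Its adjusted p ran from 0.0224, with repeat spots entered as duplicates, to 0.9987 over the alternatives that kept both day 4 values. At day 2 the fit gave −1.04 ± 0.88 (n = 3, adjusted p = 0.966). This became 0.20 ± 0.52 without day 2 array 1, 1.31 ± 0.77 with the sign of array 1 turned and −1.45 ± 0.73 with that of array 2 turned. Day 4 differed from day 2 by −1.20 ± 1.39 (adjusted p = 0.9999), a difference that 1 array could move widely. It was −3.55 or −0.79 with array 1 or 2 of day 2 turned, −0.21 without day 4 array 2 and −0.37 without day 2 array 2, but −2.44 without day 2 array 1 and −2.19 without day 4 array 3. On array 3, with the shared day 0 RNA, the step from day 2 to day 4 was −1.03, at rank 43 of 5630 probes.

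Peg10 was far below day 0 on day 2 array 2 and on day 4 arrays 1 and 2, by both of its probes, and near 0 wherever array 3 measured it. The brighter probe had −0.70, −2.19 and −0.05 on day 2 arrays 1, 2 and 3, and −2.23 and −1.85 on day 4 arrays 1 and 2. The dimmer probe had −0.45, −1.93 and 0.01 at day 2, and −1.77, −1.63 and −0.18 on day 4 arrays 1, 2 and 3. The day 4 values overlapped the day 2 values, because day 2 array 2 was as low as day 4 arrays 1 and 2. Where both probes had a value they differed by 0.06 to 0.46 on an array, the brighter probe always being the lower. On day 4 arrays 1 and 2 the brighter probe was 7th from the lowest and the dimmer probe 10th and 11th.

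Spot brightness differed in the same way between arrays. On arrays 1 and 2 of either age both Peg10 probes were brighter than 65.8% to 76.7% of all probes, and where array 3 measured them brighter than only 8.51% to 12.8%. On day 2 array 3 the dimmer probe carried the authors' mark read here as low signal. The part of low signal in the values near 0 was not tested.

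The brighter Peg10 probe was fitted at a 4.1-fold lower level at day 4 (log2 −2.04 ± 0.51, n = 2, 95% interval −3.35 to −0.72, adjusted p = 0.287) and did not pass. Its value rests on arrays 1 and 2, since array 3 gave none. On array 1 it carried an authors' flag that the headers do not define. The dimmer probe had −1.19 ± 0.46 (n = 3, adjusted p = 0.497). With the day 4 arrays fitted alone the adjusted p of the brighter probe was 0.0137. Over the alternatives that kept both day 4 values it ran from 0.000227, with repeat spots entered as duplicates, to 0.717. At day 2 the probes had −0.98 ± 0.42 and −0.79 ± 0.46 (adjusted p = 0.966 for both). With the sign of day 2 array 1 turned the brighter probe had −0.51 ± 0.54, and with that of array 2 turned 0.48 ± 0.55. The dimmer probe had −0.49 and 0.50 in the same order. Day 4 against day 2 gave −1.05 ± 0.66 and −0.40 ± 0.64 (adjusted p = 0.9999 for both). With array 1 turned these were −1.52 and −0.70, and with array 2 turned −2.51 and −1.69.

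Grb10, which restrains the receptors that Igf2 acts on, lay much nearer to 0. Its log2 ratio was −1.01, 0.50 and −0.70 on day 2 arrays 1, 2 and 3, and −0.42, −0.14 and −0.87 on day 4 arrays 1, 2 and 3. All 3 day 4 arrays were below 0, which held for 25.2% of all probes tested, and the ages overlapped. On day 4 arrays 1 and 3 Grb10 carried an authors' flag that the headers do not define, and array 3 had 3 repeat spots. The fit gave −0.48 ± 0.31 at day 4 (95% interval −1.22 to 0.27, limma adjusted p = 0.714), −0.41 ± 0.31 at day 2 (adjusted p = 0.966) and −0.07 ± 0.43 between them (95% interval −1.13 to 0.98, adjusted p = 0.9999, n = 3 each). The day 2 mean was 0.27 ± 0.32 with the sign of array 1 turned and −0.74 with that of array 2 turned, and the difference between ages −0.75 and 0.26. The intervals allow a 2-fold lower level at day 4 as well as a rise.

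Ube3a gave different values by its 2 probes. The brighter probe had −1.39, −1.17 and −0.27 on day 2 arrays 1, 2 and 3, and −0.74 and −0.08 on day 4 arrays 2 and 3, all below 0 and highest on array 3 of either age. The dimmer probe had −0.12, 0.17 and −0.36 at day 2 and 0.16, 0.21 and −0.56 at day 4, on both sides of 0. The probes differed by −1.26 and −1.33 on day 2 arrays 1 and 2 and by −0.95 on day 4 array 2, but by 0.08 and 0.48 on array 3 of day 2 and day 4. The brighter probe was brighter than at least 93.5% of all probes on each array that measured it, while the dimmer one never exceeded 31.7%. Where on the transcript each clone lies was not analysed here.

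By the brighter probe Ube3a was 1.92-fold below day 0 at day 2 (log2 −0.94 ± 0.27, n = 3, adjusted p = 0.966) and at −0.41 ± 0.33 at day 4 (n = 2, adjusted p = 0.776). Between the ages its sign was opposite to that of Igf2, H19 and Peg10, at 0.53 ± 0.42, with an interval of −0.54 to 1.61 that includes 0 (adjusted p = 0.9999). The day 2 mean became −0.02 or −0.16 with the sign of array 1 or 2 turned, and the difference between ages −0.39 or −0.24. The dimmer probe was fitted at −0.10 ± 0.19 at day 2 and −0.06 ± 0.19 at day 4 (n = 3, adjusted p = 0.972 and 0.948), an interval at day 4 of −0.53 to 0.41.

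On day 2 arrays 1 and 2, which opposed each other, Igf2, Peg10 and the brighter Ube3a probe were below 0 on both. Only 11.8% of the 8272 probes were below 0 on both day 2 array 1 and day 2 array 2. The brighter Ube3a probe, at −1.17 or lower on both, was the single probe that low on both arrays. Igf2, at −0.80 or lower on both, was 1 of 4 such probes, and the brighter and dimmer Peg10 probes were 1 of 8 and 1 of 20 at their own levels. Each level was set by the probe's own values, so the counts cannot be compared between probes. H19 and Grb10, in contrast, changed sign between these arrays. These counts describe the labelled orientation; with either array turned, Igf2, Peg10 and the brighter Ube3a probe have opposite signs on the pair.

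**Figure D2:**
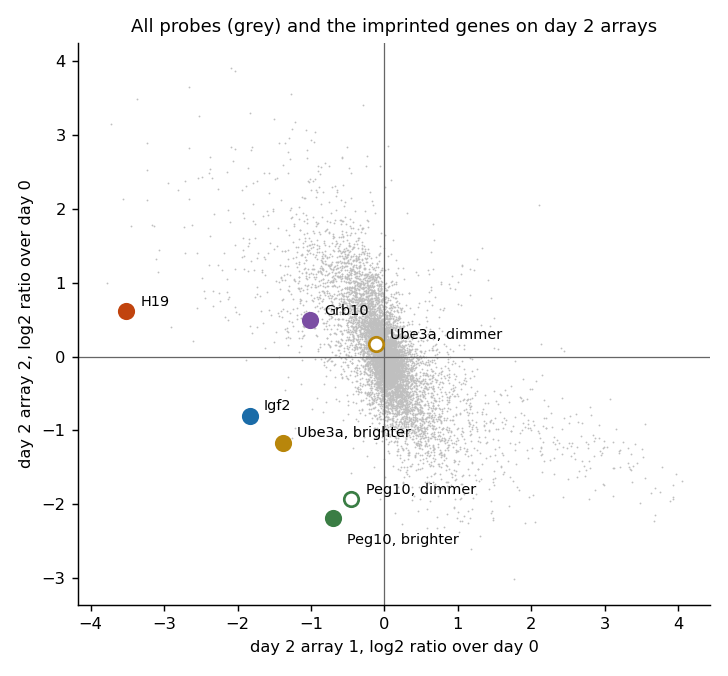
Log2 ratio over day 0 of all 8272 probes on day 2 array 1 (horizontal axis) and day 2 array 2 (vertical axis), with the imprinted genes coloured and the dimmer probe of a gene drawn open. Most probes run from upper left to lower right (r −0.675), while Igf2, both Peg10 probes and the brighter Ube3a probe lie at the lower left, below 0 on both arrays.

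Seen over the group, all 5 genes had a fitted mean below 0 at day 4, as did 50.17% of all probes. Their median was −2.04 against −0.00135 over all probes. At day 2 all 5 were below 0 as labelled (47.65% of all probes), with a median of −0.98 against 0.01. The genes were chosen with earlier results of these data known, so the group values are a description and not a test. With array 1 of day 2 turned 2 of the 5 were below 0 (median 0.14), and with array 2 turned 4 of the 5 (median −0.55). By brighter probe the day 4 order from the lowest was H19, Igf2, Peg10, Grb10 and Ube3a. H19, Igf2 and Peg10 did not differ beyond their SEs, nor did Grb10 and Ube3a, and differences between genes were not tested. The interval of H19 spans the other 4 values, and H19 had −1.26 without day 4 array 2. By fitted mean at day 4, H19, Igf2 and the Peg10 probes ranked 13, 15, 16 and 24 from the lowest of 8135 probes. The brighter Ube3a probe, the dimmer one and Grb10 ranked 763, 3315 and 551. At day 2 the ranks were 11 for H19, 10 for Igf2, 14 and 25 for Peg10 and 336 for Grb10. The brighter Ube3a probe ranked 16 and the dimmer one 2254. The day 2 ranks depend on the orientation of the arrays: with the sign of array 1 turned H19 ranked 8084, Igf2 5562, the Peg10 probes 796 and 867, the brighter Ube3a probe 3839 and Grb10 6392. With that of array 2 turned they ranked 54, 591, 7480 and 7514, 2175 and 307 in the same order. The dimmer Ube3a probe ranked 3783 with array 1 turned and 1836 with array 2 turned.

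Of the 7 probes, 0 passed in any of the 3 comparisons by limma. At an unadjusted p under 0.05 there were 2 at day 2 (Igf2 and the brighter Ube3a probe), 3 at day 4 (Igf2 and both Peg10 probes) and 0 between the ages, all of them lower. With array 1 of day 2 turned the day 2 count was 0 members and 1884 of all probes in either direction, and with array 2 turned 1 member (Grb10) and 1120 probes, against 231 as labelled. As labelled, 1.12%, 4.29% and 0.676% of all probes were lower at that level in the same comparisons. Arrays all below 0 at day 2 were found for Igf2, the brighter Peg10 probe and the brighter Ube3a probe, against 7.33% of all probes. With array 1 turned there were 0 such members (22.4% of all probes), and with array 2 turned they were H19, Grb10 and the dimmer Ube3a probe (16.3%). With the repeat spots kept as duplicates in the fit, 4 of the 7 passed at day 4 (Igf2, H19 and both Peg10 probes). Repeat spots of an array share its RNA samples and are not replicates of an age. The SE of H19 at day 4 was 0.58 there, against 1.08 in the main fit. In that fit 374 of all probes passed, 218 higher and 156 lower.

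**Figure D3:**
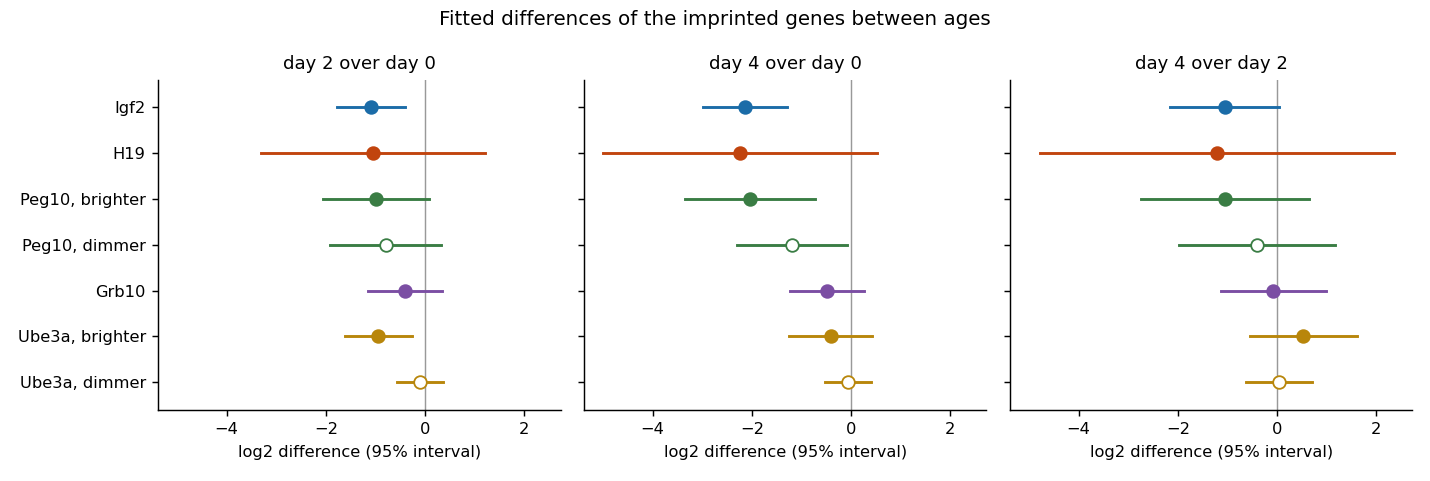
Fitted log2 difference (point) with its 95% interval (line) from limma for each probe, for day 2 over day 0, day 4 over day 0 and day 4 over day 2; open points are the dimmer probe of a gene. The intervals of Igf2 and of both Peg10 probes at day 4 lie below 0 before adjustment, and that of H19 is the widest.

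Few genes of the IGF pathway outside the group were on the arrays. Of 18 ligands, receptors and binding proteins, besides Igf2, 1 was measured: Igf2bp3, an RNA-binding protein that binds Igf2 mRNA. It had −0.41 and −0.71 on day 4 arrays 1 and 2 and −0.12, −0.09 and −0.06 at day 2. The fit gave −0.56 ± 0.14 at day 4 (n = 2, adjusted p = 0.284). A second probe of it had −0.18 ± 0.13 (n = 3, adjusted p = 0.743), and its ages overlapped. Of 37 genes of the insulin and IGF signal inside the cell, 10 were measured, 0 passed in any comparison and 0 had an unadjusted p under 0.05. Their median at day 4 was −0.04, and the highest value was 0.58, for Foxo1, a transcription factor that insulin signalling holds back.

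The other imprinted genes that could be tested lay near 0. Of 70 listed, 9 were measured and 8 tested, with a median of 0.01 at day 4; Dlk1 had too few values. They ran from −0.39 for Dhcr7, an enzyme of cholesterol synthesis, to 0.36 for Th, the first enzyme of catecholamine synthesis. In each comparison 0 passed and 0 had an unadjusted p under 0.05. Ndn, a paternally expressed gene from the same region as Ube3a, had −0.15 at day 4, and Phlda2, a maternally expressed brake on placental growth, had 0.17. Whether the 5 genes differ from the other imprinted genes was not tested.

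Of 26 genes that keep imprints or regulate the Igf2 and H19 region, 8 were measured and 0 passed. Zfp57, a zinc finger protein that guards methylation at imprints, had 1.21 and 1.14 on day 4 arrays 1 and 2, against 0.04, 0.43 and −0.13 at day 2. The fit put it 1.17 ± 0.18 above day 0 at day 4 (adjusted p = 0.102, n = 2). Dnmt3a, which methylates DNA in the growing oocyte, had 0.45 ± 0.14 (adjusted p = 0.393, n = 2). The other 6 had values from −0.15 to 0.25. Of the ubiquitin list made for Ube3a, the genes measured were 2 partner enzymes, Ube2d2 (0.15) and Ube2l3 (0.01), and neither passed.

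Markers of several cell types lay away from 0 on the same arrays. The 5 oocyte markers measured had a mean log2 ratio per array of 2.03 to 2.28 at day 4 and −0.27 to 1.37 at day 2, and 1 of them, H1f8, passed at day 4 (2.39 ± 0.12, n = 3, limma adjusted p = 0.00862). A dimmer probe of Gdf9, an oocyte growth factor, also passed (2.93 ± 0.18, adjusted p = 0.00875), while its brightest had 3.38 ± 0.52 (adjusted p = 0.0762). The erythroid markers had means of −1.15, −0.58 and −1.10 on day 4 arrays 1, 2 and 3, where 4, 5 and 3 of the 5 had a value. At day 2, with all 5 present, the means were −0.18, 0.99 and −0.35. Hba-a1 had 0.67 and −1.64 on day 4 arrays 2 and 3, and no value on array 1. Of the 5 erythroid markers 0 passed and 4 had an unadjusted p under 0.05 at day 4, all lower, against 4.29% of all probes lower at that level. Of 3 endothelial markers 2 had an unadjusted p under 0.05 at day 4, both lower: Podxl (−1.14 ± 0.18, adjusted p = 0.105) and Pecam1 (−0.44 ± 0.17, adjusted p = 0.515), while Cdh5 had 0.00. The 3 markers of mesonephros and duct had means of −0.54, −0.63 and 0.05 on the day 4 arrays, and they had different signs. Cdh1 was at 0.38 ± 0.21 (adjusted p = 0.672), Krt8 at −0.96 ± 0.41 (adjusted p = 0.572) and Krt18 at −0.55 ± 0.19 (adjusted p = 0.459), with a second Krt18 probe at −1.63 ± 0.23 (adjusted p = 0.0879). The part of these cell types in the values of Igf2, H19 and Peg10 was not tested.

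The remaining marker lists held few measured genes. The liver markers Alb, Apoa1 and Ttr, of interest because the H19 clone is annotated as a fetal liver mRNA, had −0.29, 0.04 and 0.23 at day 4, and 0 passed. For granulosa cells and for stroma 1 marker each was measured, Nr5a1 (−0.07) and Pdgfra (0.12). The 3 theca markers ran from 0.12 to 0.53 and the 2 fat markers from −0.20 to −0.08, and 0 passed.

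**Figure D4:**
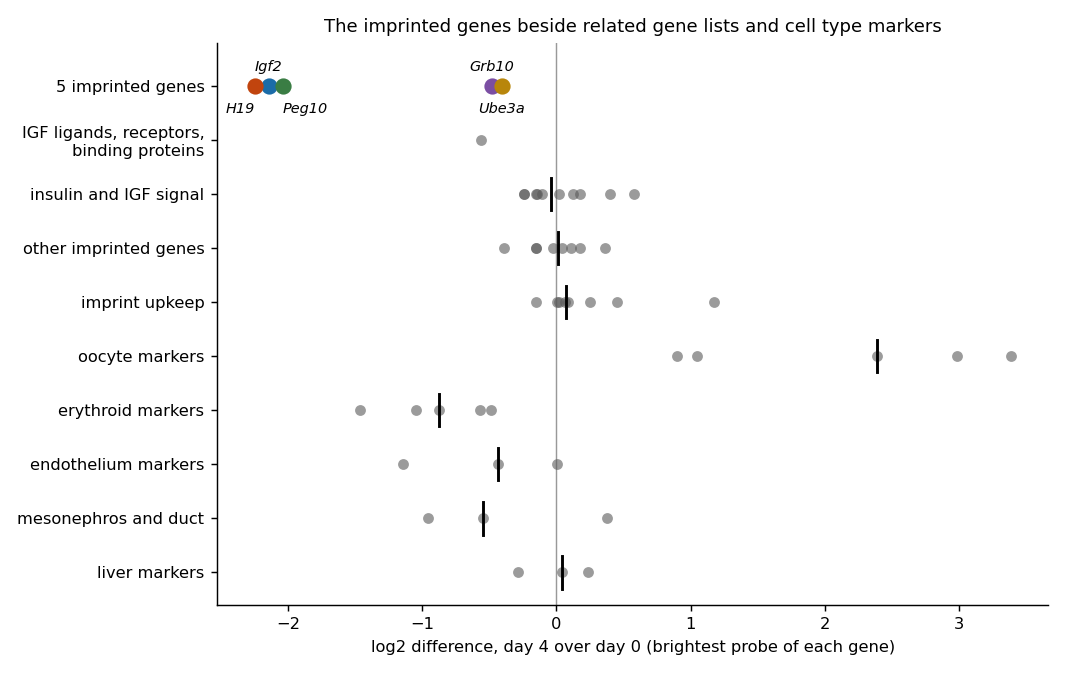
Fitted log2 difference of day 4 over day 0 (horizontal axis) for the 5 imprinted genes, coloured, and for the measured genes of related lists and cell type markers, grey, with a black bar at the median of lists of over 2 genes; the brightest probe stands for each gene. H19 (−2.25), Igf2 (−2.14) and Peg10 (−2.04) lie below every grey point, and Grb10 and Ube3a lie among them.

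Among all named genes, the patterns most like each member over the arrays were found by the root mean square difference of log2 ratios. For H19 over 5 arrays the nearest was Igf2, at 1.12. For Igf2 the nearest were guanine nucleotide binding protein beta 1 (0.916), chaperonin subunit 4 (0.964) and aldolase 1 A (0.982), and all 3 were above it on day 4 arrays 2 and 3. For Peg10 the nearest other gene was syntrophin acidic 1, at 0.602 over 5 arrays, with −1.39 and −1.47 on day 4 arrays 1 and 2. For Grb10 over 6 arrays the nearest were 2'-5' oligoadenylate synthetase 1A (0.121) and the proteasome subunit 26S non-ATPase 1 (0.129). The difference is not scaled, so a gene near 0, where most probes lie, tends to have closer neighbours. Its size therefore does not compare the members. For the brighter Ube3a probe catenin beta was nearest (0.467 over 5 arrays). The points share the day 0 RNA of array 3.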

How the data were processed

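The authors deposited, per probe and array, 4 repeat log2 ratios (later day over day 0), their mean and a mean log2 intensity, with the ratio's direction and log2 scale per the file headers and the intensity's scale read from its values. Other deposited columns hold flags of 0 or 1, not defined in the headers, and were read from their values. The authors used R 1.7.1 per the submitters' processing notes; their background correction and normalization method: not given in the sources used here. Array medians near 0 show that ratios were already normalized.

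The mean of the repeats was tested with limma 3.58.1 in R 4.3.3. 1 mean per age was fitted to all 6 arrays (prior degrees of freedom 2.03, 2-sided), for 8135 probes with at least 2 values per age, and p-values were adjusted by Benjamini-Hochberg over them. The fit was tried on simulated data with independent arrays. These data did not model the shared day 0 RNA or the opposed day 2 arrays. SE is from the fit; n counts arrays of the later age. The members and lists were chosen with earlier results of these data known. All probes of the 5 genes are named; list genes are named at an unadjusted p under 0.05 or by range, and all of the IGF ligand and receptor list. Other genes named (Ndn, Phlda2 and the remaining markers) were chosen after their values were seen. Sequences come from RefSeq tables; 3 of 5 genes had a promoter window. No genome was used to place the clones. Alternatives covered scaling, repeats, flags, filters, moderation, left-out arrays, a replicate block and turned signs.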

Additional observations from a re-analysis of the deposited data

How the results depend on the processing

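The 7 probes gave 378 values under the alternatives, of which 351 kept their direction and side of the threshold, 7 newly passed and 20 changed sign. All 7 that newly passed were at day 4: Igf2 (adjusted p 3.18e-05), H19 (0.0224) and both Peg10 probes (0.000227 and 0.00692) with repeats as duplicate spots, Igf2 (0.0135) and the brighter Peg10 probe (0.0137) with arrays of 1 age alone, and Igf2 (0.0191) without day 2 array 1. The count of members passing at day 4 was thus 4, 2 and 1 there, 0 to 1 over the left-out arrays, and 0 otherwise. Over all probes the day 4 count of 39 became 96 with scale normalization, 374 with duplicate spots, 126 with trend and robust moderation, 166 with arrays of 1 age alone, 0 to 71 over the left-out arrays, 0 without array 3 of both ages and 0 where day 2 array 2 had its sign turned. Duplicate spots gave 19 probes at day 2 and 57 between ages, and trend and robust moderation gave 1 between ages. Duplicate spots share the RNA samples of their array and add no replicate of an age.

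Sign changes at day 2 with array 1 turned were Igf2 0.14, H19 1.31 and Grb10 0.27, and with array 2 turned Peg10 0.48 (brighter) and 0.50 (dimmer). H19 at day 2 ran from −1.87 to 0.20 over the left-out arrays, above 0 only without day 2 array 1. Between ages Grb10 was 0.10 with scale normalization, from −0.37 to 0.38 over the left-out arrays (above 0 without day 2 array 2 and without day 4 array 3) and 0.26 with day 2 array 2 turned, and the brighter Ube3a probe −0.39 and −0.24 with array 1 or 2 turned. The dimmer Ube3a probe was 0.022 at day 2 and 0.19 at day 4 without array 3 of both ages, and −0.037 between ages with array 1 turned. Over the left-out arrays it ran from −0.24 to 0.022 at day 2, from −0.20 to 0.19 at day 4 and from −0.092 to 0.29 between ages, below 0 without array 3 of day 2 and without array 1 or 2 of day 4. For left-out or turned arrays the change follows from that array's values, which the report gives; the cause was not tested for the others. A lone remaining array was assumed to vary like the rest.

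Deviations of same-numbered arrays from their age means correlated at 0.365, 0.0526 and 0.515 for arrays 1, 2 and 3. Those of differently numbered arrays correlated between −0.421 and 0.0912. Array 3 of both ages shared 1 day 0 RNA, which pairs the ages there, and the main fit does not model this. With array number as a replicate block, 0 members and 0 of all probes passed between ages (1 member and 224 probes at an unadjusted p under 0.05), and Igf2 had −1.43 ± 0.23 (adjusted p = 0.9999). Peg10's brighter probe has no value on day 4 array 3, and Igf2, H19 and the brighter Ube3a probe none on day 4 array 1, so their day 4 values rest on 2 arrays, and no result for them could be had from probes with a value on all 6 arrays. Without the values that the authors marked, the brighter Peg10 probe and Grb10 had too few values to be tested, and the dimmer Ube3a probe was among the dim probes that a filter removed.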

Other observations

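Dlk1, a paternally expressed gene of fetal growth that encodes a transmembrane protein of the Notch ligand family, had too few values to be tested. On day 4 array 2, the only day 4 array that measured it, its log2 ratio was −1.99 (3.97-fold lower than day 0), which was the fourth-lowest, at rank 4 of 8272 probes, where H19 and Igf2 ranked 1 and 2. On the day 2 arrays it had −1.89, −0.04 and 0.09. It is bright on the arrays (log2 intensity 14.3 on day 4 array 2).

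Among probes of like brightness on the same array, H19 and Igf2 were the lowest 2 of the 828 brightest on day 4 array 2, whose median was 0.04. On day 4 array 3 Igf2 was the third-lowest, at rank 3, and H19 at rank 33 of the 563 probes in their 10% band of brightness. On day 2 array 1, where H19 had −3.52, the brightest 10% of probes spread widely, with 5th and 95th percentiles of −2.26 and 2.86, against −0.86 and 0.94 over all probes, and H19 ranked 4 and Igf2 73 of 828.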
